A study of Mus musculus with 6 samples.

Results

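The 58 genes described here encode splicing factors and neuronal RNA-binding proteins. They were taken by symbol alone from the protein-coding genes among the 43432 genes in the tables, with no measured value used. They form 10 families, with 11 Srsf, 20 Hnrnp, 4 Srrm, 2 Tra2, 3 Mbnl, 6 Celf, 3 Rbfox, 2 Nova, 4 Elavl and 3 Khdrbs genes. Their RNA was measured by RNA-seq in cortical neurons of WT C57BL/6 mouse embryos at E16.5, with male and female embryos pooled, after 7 days in culture. All cultures, the controls included, were silenced overnight with 1 µM tetrodotoxin (TTX), a sodium channel blocker, and 100 µM DL-AP5, an NMDA receptor antagonist. No group therefore holds neurons with their spontaneous activity. Depolarization was by KCl at 55 mM for 2 h or 6 h, the 0 h cultures received none, and each of the 3 groups has 2 libraries. The replicates are called biological, but the labels do not say that they came from separate dissections, and p-values then measure only the spread between these libraries.

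Pre-mRNA splicing is steered by proteins that bind exons and introns beside the splice sites. SR proteins (the Srsf genes, with Tra2a and Tra2b) mostly promote inclusion of the exons they bind, hnRNP proteins often repress it, and both kinds are abundant in every cell. Mbnl, Celf, Rbfox, Nova, Elavl and Khdrbs proteins and Srrm4 set the exon choices of differentiating tissue, above all brain and muscle, and several also act on mRNA stability, localisation or translation. Many SR and hnRNP genes carry poison exons or retained introns whose use yields transcripts that are degraded or kept in the nucleus, which is a known way for these proteins to adjust their own amount. Membrane depolarization is a classical stimulus for changes in alternative splicing in neurons.

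The libraries held between 25959298 and 28573067 expected counts, of which the 58 genes took 1.13% to 1.25%. The immediate-early genes Fos, Npas4, Arc, Egr1 and Nr4a1 summed to 9.09 and 9.3 TPM (transcript level per length, scaled to the library) at 0 h, to 602 and 773 at 2 h and to 330.2 and 317.5 at 6 h. The 2 h libraries stood apart from each other. Over 12290 genes, replicates differed on the log2 scale with an SD of 0.43 at 2 h against 0.25 at 0 h and 0.21 at 6 h, and this difference followed the GC content of the genes with a Spearman rho across genes of -0.71 at 2 h. For the 57 of the 58 genes in that set, this SD came to 0.35 at 2 h against 0.11 (0 h) and 0.09 (6 h), and replicate 1 of 2 h was higher by a median of 0.21. Fits without each 2 h library, and a correction of the counts for the GC content of genes, were run for this reason. A fit that leaves out a library has a single library in that group, so its p-values rest on the spread of the other groups. A call gained or lost in such a fit can therefore come from that spread without any change in the value. Neuronal markers made up the largest marker sum, with 9 of 9 detected and 5654 to 6262 TPM per library. The 8 astrocyte markers were all detected and summed to 836 and 907 TPM at 0 h, 787 and 822 at 2 h, then 632 and 604 at 6 h. The 8 oligodendrocyte lineage markers summed to 98.9 to 152 TPM, and the 9 progenitor and dividing cell markers to 213 to 245 TPM. Markers of microglia (6 genes) and of blood vessels (5 genes) summed to at most 6.48 TPM in any library, and the endothelial gene Cldn5 was at 0 in 4 of the 6 libraries.

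Per unit of transcript length, the 58 genes covered a wide range of levels. Their median level in TPM stood at 86.8 (0 h), 86.4 (2 h) and 96.5 (6 h), and 26, 26 and 29 of them lay above 100 TPM. Hnrnpa1, which encodes a repressor of exon inclusion and nuclear export factor, had the highest level at 0 h and 2 h with means of 985 and 1079 TPM. At 6 h its paralog Hnrnpa2b1, at 799 TPM, stood beside it (788 TPM), and the libraries of these 2 genes overlapped. The lowest level was that of Mbnl3 at every time, at 0.59, 0.65 and 1.31 TPM. The Hnrnp family alone summed to 5093 TPM ± 115 (SD, n = 2) at 0 h, out of 8284 ± 69.3 for all 58 genes. The heat map of all genes shows each library against the 0 h mean.

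**Figure D1:**
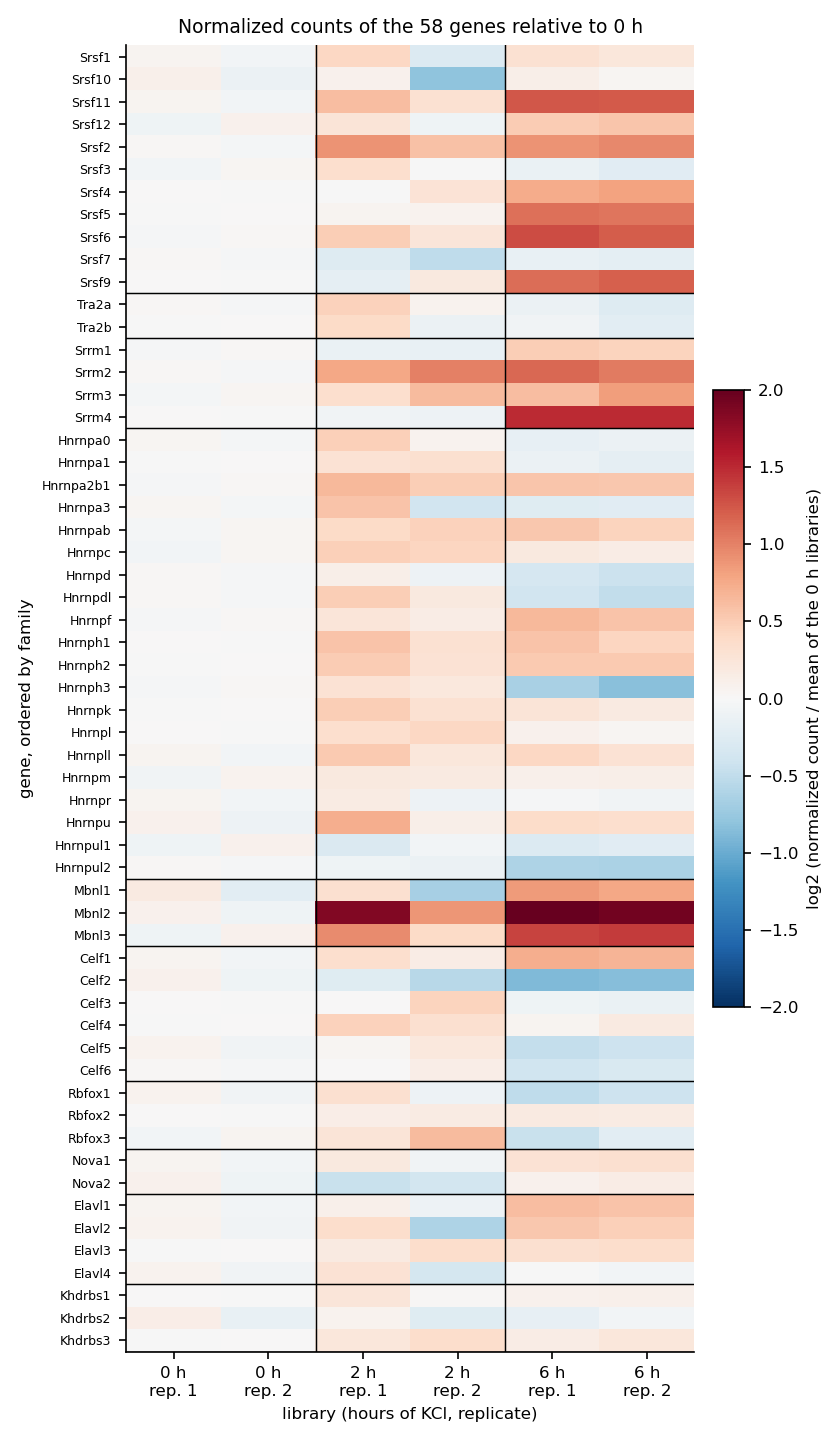
Rows are the 58 genes ordered by family, columns are the 6 libraries, and colour is log2 of the DESeq2-normalized count over the mean of the 0 h libraries. Mbnl2 and Srrm4 are the darkest rows at 6 h, most Srsf rows are red there, and the 2 libraries of 2 h differ in shade for many genes.

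After 2 h of KCl, 20 of the 58 genes were higher than at 0 h and 3 were lower, by DESeq2 with the adjusted p no greater than 0.05. Of the 16840 genes tested, 12.3% were higher and 14.2% lower by the same rule. The median log2 fold change of the 58 genes was 0.18, beside 0.01 for all genes averaging 10 counts or more. Only Mbnl2 was more than 2-fold higher, which it was not without 2 h replicate 1, and no gene was more than 2-fold lower, where 3.62% and 5.94% of all genes were. DESeq2 gave 0 genes lower by more than 2-fold also at an unadjusted p under 0.05, and so did edgeR. By family, 10 of 20 Hnrnp genes were higher and 0 lower, with a median log2 fold change of 0.33, while 3 of 11 Srsf genes were higher and 1 lower. Scaling to library totals put the median of all genes at -0.16, gave 5 of the 58 genes higher and 5 lower, left the Hnrnp median at 0.16 with 2 genes higher and 1 lower, and turned the Srsf median from 0.11 to -0.06. The shares of all genes above belong to the first scaling, and those under library totals are not given here. After GC correction 30 genes were higher and 2 lower, 14 and 0 of them in Hnrnp and 4 and 0 in Srsf. Of the 14668 genes averaging 10 counts or more, 3189 were then higher and 2473 lower. The count of higher genes ranged from 4 without 0 h replicate 1, 5 without 0 h replicate 2 and 11 without either 6 h replicate to 20 without 2 h replicate 1 and 30 without 2 h replicate 2, and that of lower genes from 0 without either 0 h replicate and 1 without either 6 h replicate to 4 without 2 h replicate 2 and 9 without 2 h replicate 1.

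After 6 h, 23 of the 58 genes were higher than at 0 h and 8 were lower, where 23.7% and 21.7% of the 17277 genes tested were. More than 2-fold higher were 8 genes, Mbnl2, Mbnl3, Srrm2, Srrm4, Srsf5, Srsf6, Srsf9 and Srsf11, and none was more than 2-fold lower, beside 9.1% and 10.2% of all genes. DESeq2 at an unadjusted p under 0.05 and edgeR also gave 0 genes lower by more than 2-fold. The median log2 fold change was 0.18 for the 58 genes and 0.00 for all genes. Counts by family follow, and differences between families were not tested. Higher genes were 7 of 11 in Srsf, 4 of 4 in Srrm and 3 of 3 in Mbnl, with 0 lower in each, while 3 of 6 Celf genes were lower and 1 higher. In Hnrnp, 6 genes were higher and 4 lower. Under library totals the median of all genes was -0.25, and the Srsf (0.53), Srrm (0.67), Mbnl (1.13) and Celf (-0.48) medians stayed on their side of 0, but that of Hnrnp turned from 0.09 to -0.16, and 15 of the 58 genes were then higher and 17 lower, with 3 more than 2-fold higher (Mbnl2, Srrm4 and Srsf6) and Celf2 more than 2-fold lower. Again the shares of all genes belong to the first scaling, with none given for library totals. In the test against a fold change of 2, Mbnl2 and Srrm4 passed. After GC correction 26 genes were higher and 12 lower, 7 and 2 of them in Srsf and 1 and 2 in Celf. Of the 14668 genes averaging 10 counts or more, 4495 were then higher and 3888 lower. Without any 1 library, between 16 (6 h replicate 1 left out) and 30 genes (either 2 h replicate left out) were higher, and lower genes numbered 3 without 0 h replicate 1 or 6 h replicate 1, 4 without 0 h replicate 2 or 6 h replicate 2, and 14 without either 2 h replicate. The same astrocyte markers whose sum is given above had 5 of 8 genes lower and 0 higher at 6 h. Of the 9 neuron markers, 6 were higher and 1 lower. The part of these markers in the results was not tested. In RNA from a whole culture, fewer cells of a type and less RNA per cell cannot be told apart.

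Between 2 h and 6 h, 13 genes rose and 16 fell, where 24.1% and 21.2% of the 16404 genes tested did. More than 2-fold higher were Srrm4, Srsf5 and Srsf9, and no gene was more than 2-fold lower, beside 10.1% and 8.02% of all genes. DESeq2 at an unadjusted p under 0.05 also gave 0 genes lower by more than 2-fold, and edgeR gave 1, Hnrnph3. In this interval 6 of 11 Srsf genes rose and 1 fell, 8 of 20 Hnrnp genes fell and 1 rose, and 4 of 6 Celf genes fell and 1 rose, and the medians of these families kept their sign under scaling to library totals. After GC correction 16 of the 58 genes rose and 23 fell, with 14 Hnrnp genes (median -0.38, against -0.14 without it) and 2 Celf genes among those that fell. Of the 14668 genes averaging 10 counts or more, 4005 then rose and 3981 fell. Without 2 h replicate 1, 24 genes rose and 6 were more than 2-fold higher, while those more than 2-fold lower numbered 1 without 2 h replicate 2 or 6 h replicate 1, and those that fell numbered 10 without either 0 h replicate, 6 without 6 h replicate 1 and 7 without 6 h replicate 2. All 3 comparisons share libraries, so a high or low 2 h library moves the first and the last of them in opposite ways.

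**Figure D2:**
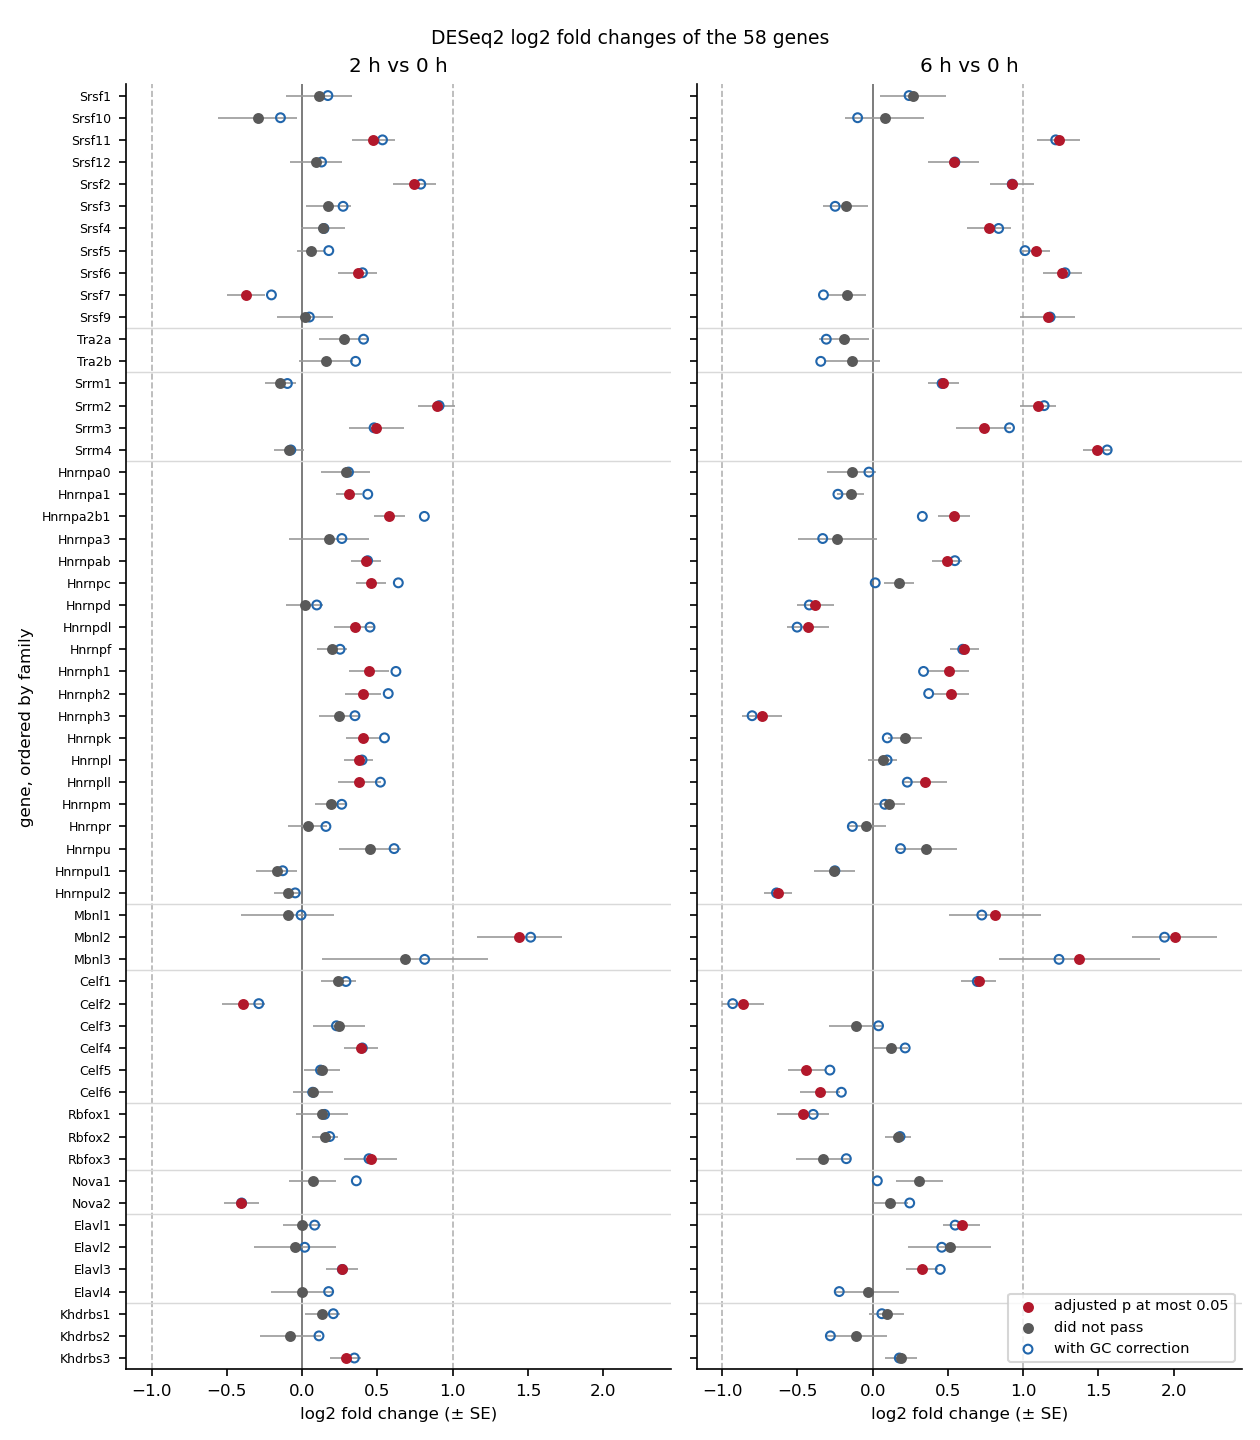
Filled points give the DESeq2 log2 fold change of each of the 58 genes at 2 h and 6 h against 0 h with its standard error, red where the adjusted p was at most 0.05, dashed lines mark 2-fold, and open circles give the value after GC correction. At 6 h, Srsf, Srrm and Mbnl points lie mainly to the right, a side their medians kept when scaled to library totals, and Hnrnp points lie on both sides.

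Among the SR protein genes, 4 were more than 2-fold higher at 6 h than at 0 h. Srsf6 (ENSMUSG00000016921, chr2:162931528-162937121, plus strand, GRCm38), a regulator of exon inclusion in tau and other transcripts, had 2708 and 2789 normalized counts at 0 h, 3858 and 3240.0 at 2 h, then 6820.4 and 6352 at 6 h. It rose step by step, with no overlap between any groups and log2 fold changes of 0.37 ± 0.13 (SE) at 2 h (adjusted p 0.0215) and 1.26 ± 0.13 at 6 h against 0 h (adjusted p 1.05e-20). Among 16 other settings that also tested for any change (other scalings, filters, tools and leaving out a library), the 2 h call held in 10 and was lost without either 0 h replicate or either 6 h replicate, at adjusted p from 0.108 to 0.303, under library totals (0.20, adjusted p 0.256) and with limma on log2(TPM + 1) (0.13, adjusted p 0.265). The 6 h call held in all 16. Srsf11 (ENSMUSG00000055436, chr3:158010473-158036639, minus strand), which encodes a U2AF-interacting SR-related protein, followed the same course, with 2114 and 1944 counts at 0 h, 3118 and 2512 at 2 h, then 4804 and 4755 at 6 h. Its log2 fold change was 0.47 at 2 h (adjusted p 0.00591) and 1.24 at 6 h (adjusted p 1.7e-16), and each group lay above the one before it. The call at 2 h was lost without 0 h replicate 1 (adjusted p 0.0779) or 0 h replicate 2 (adjusted p 0.218), under library totals (0.30, adjusted p 0.0722), with the effective length as an offset (adjusted p 0.0661) and with limma on log2(TPM + 1) (0.22, adjusted p 0.292).

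Srsf5 and Srsf9 differed from that course, since their counts at 2 h were near those at 0 h. Srsf5 (ENSMUSG00000021134, chr12:80945504-80950507, plus strand), which encodes SRp40, had 3604 and 3652 counts at 0 h, 3753 and 3809.6 at 2 h, then 7782 and 7623 at 6 h. The difference of 2 h from 0 h was 0.06 ± 0.09 on the log2 scale and did not pass (adjusted p 0.723), although with the effective length as an offset it was 0.27 and passed (adjusted p 0.0331), whereas that of 6 h from 2 h was 1.03 (adjusted p 1.31e-27). Srsf9 (ENSMUSG00000029538, chr5:115327177-115333080, plus strand), which encodes a small SR protein with a short RS domain, had 332 and 325 counts at 0 h, 291 and 375 at 2 h, then 716 and 755 at 6 h. Its 2 h libraries lay on both sides of the 0 h libraries, and it was 2.24-fold higher at 6 h than at 0 h (adjusted p 1.49e-09). Thus both genes lay low in 4 libraries and high in the 2 of 6 h.

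Srsf2 (ENSMUSG00000034120, chr11:116849901-116853094, minus strand), which encodes SC35, a constitutive splicing factor of nuclear speckles, rose within the first 2 h. It had counts of 1656 and 1586 at 0 h, 3009 and 2429 at 2 h, then 3012 and 3144 at 6 h. It rose at 2 h by 0.75 ± 0.14 on the log2 scale (adjusted p 2.82e-06), and 6 h differed from 2 h by 0.18, which did not pass (adjusted p 0.321), although without 2 h replicate 1 the difference was 0.35 and passed (adjusted p 0.00182). Srsf4 and Srsf12 were higher at 6 h against 0 h by 0.77 and 0.54, and neither passed at 2 h. Exons of Srsf2 overlap Mettl23 and Mfsd11 and those of Srsf4 overlap Gm12992, so reads may have been shared there.

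The remaining SR genes showed no gain at 6 h that passed. Srsf3, which encodes the smallest SR protein and was the most abundant of the family at 0 h by TPM, had 6169 and 6579 counts at 0 h, 8049.8 and 6343 at 2 h, then 5814 and 5446 at 6 h. It fell from 2 h to 6 h by 0.35 on the log2 scale (adjusted p 0.0388), a call that 8 of these 16 settings gave and that was lost without either 0 h replicate, 2 h replicate 1 or either 6 h replicate, at adjusted p from 0.0897 to 0.297. At 2 h against 0 h Srsf3 was at 0.18, which did not pass, but it passed at 0.32 without 2 h replicate 2 (adjusted p 0.000741) and at 0.27 after GC correction (adjusted p 0.00786). At 6 h against 0 h it was at -0.18, which did not pass (adjusted p 0.34), but passed in 5 of 16 other settings, with -0.43 under library totals (adjusted p 0.00627) and -0.25 after GC correction (adjusted p 0.0117) among them. Srsf7, a zinc-knuckle SR protein and close paralog of Srsf3, was the only SR gene lower at 2 h, from 3280.1 and 3176 counts to 2709 and 2274, a log2 fold change of -0.37 (adjusted p 0.018), and it stood at 2904 and 2824 at 6 h. For Srsf7 the call at 2 h held in 10 of 16 other settings. It was lost after GC correction (-0.20, adjusted p 0.117) and without either 0 h or either 6 h replicate, at adjusted p from 0.111 to 0.337, and from 2 h to 6 h Srsf7 passed without 2 h replicate 1 (0.34, adjusted p 0.00117). Against 0 h its 6 h value of -0.17 did not pass (adjusted p 0.285), but it passed as lower in 6 of 16 other settings, with -0.33 after GC correction (adjusted p 0.00379), -0.42 under library totals (adjusted p 0.00177) and -0.35 with limma on log2(TPM + 1) (adjusted p 0.0228) among them. Srsf1, the SR protein gene also known as SF2/ASF, had 5424 and 5016 counts at 0 h, 6980.3 and 4316 at 2 h, then 6442 and 6113 at 6 h. Its 2 h libraries lay on both sides of all the others, and none of its 3 comparisons passed. Without 2 h replicate 1 its log2 fold change at 2 h was -0.28, and without 2 h replicate 2 it was 0.40. Against 0 h, the 6 h value of Srsf1 was 0.27 in the fit of all libraries (adjusted p 0.334) and 0.26 without either 2 h replicate. Srsf10, which can act as a repressor, had fold changes from -0.30 to 0.38 that did not pass.

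Within the summed TPM of the Srsf family these courses changed its make-up. The sum was 1106 and 1100.0 TPM at 0 h, 1230.0 and 1048 at 2 h, then 1554 and 1551 at 6 h, so that the 6 h libraries lay well above all the others. Srsf5 went from 18.9% of the sum at 0 h to 25.9% at 6 h, while Srsf3 went from 19.7% to 11.5% and Srsf7 from 10.5% to 5.85%. These shares have no test of their own.

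Tra2a and Tra2b encode SR-like proteins that activate exons, among them one of the survival motor neuron gene. Tra2b, the more abundant of the pair, had 3279 and 3281 counts at 0 h, 4294 and 3029 at 2 h, then 3118 and 2846 at 6 h, and none of its comparisons passed. After GC correction all 3 passed, with 0.36 at 2 h (adjusted p 0.00129), -0.35 at 6 h against 0 h (adjusted p 0.00121) and -0.70 from 2 h to 6 h (adjusted p 7.99e-12). Without 2 h replicate 2 its value at 2 h was 0.37 (adjusted p 0.000625) and that from 2 h to 6 h was -0.51 (adjusted p 6.32e-07). Tra2a fell from 2 h to 6 h by 0.47 on the log2 scale (adjusted p 0.0128). After GC correction it too passed in all 3, with 0.41 at 2 h (adjusted p 3.14e-05), -0.31 at 6 h (adjusted p 0.00174) and -0.72 from 2 h to 6 h (adjusted p 1.95e-14). For both genes replicate 1 of 2 h was the highest library.

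**Figure D3:**
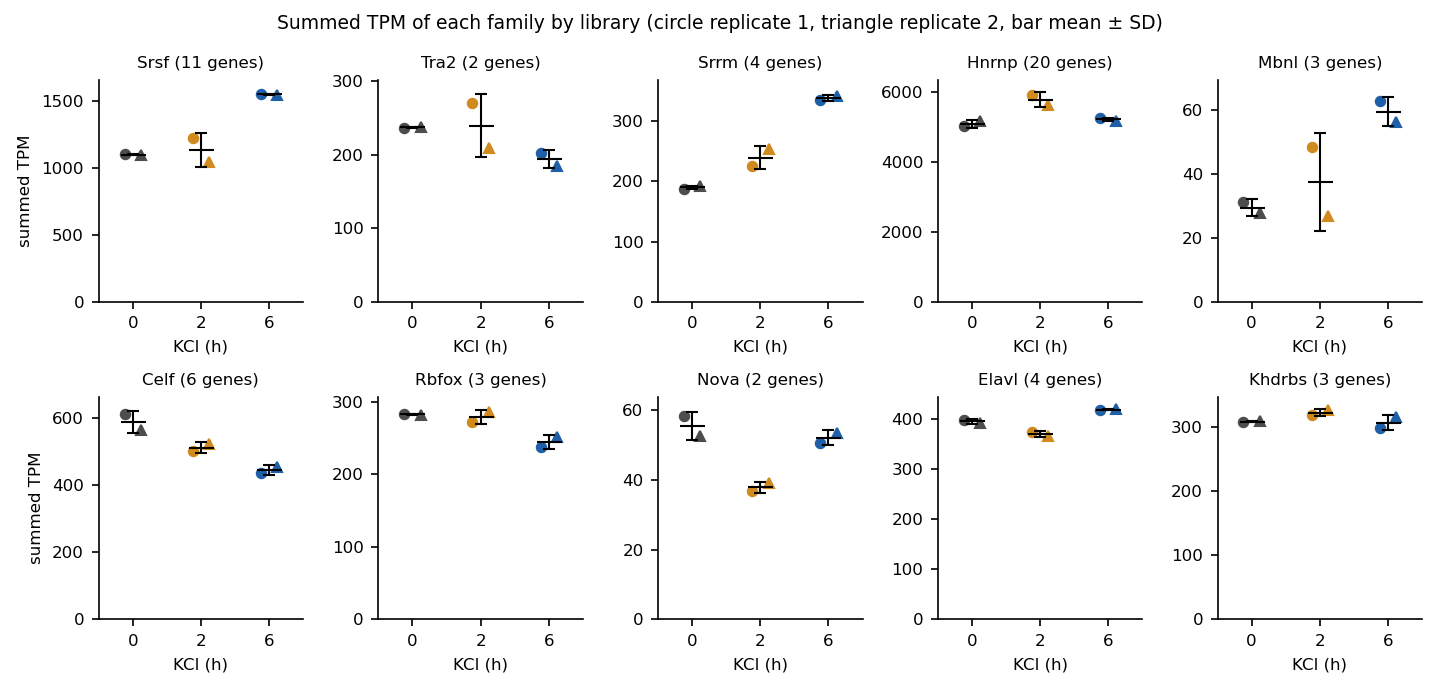
Each panel gives the summed TPM of 1 family (y axis, from 0) against hours of KCl, with a circle and a triangle for replicates 1 and 2 and a bar for mean ± SD. Srsf and Srrm sums are highest in the 6 h libraries, the Hnrnp sum is highest at 2 h, the Celf sum goes from 589 at 0 h to 446 TPM at 6 h, and the 2 h replicates of Srsf, Tra2 and Mbnl lie apart.

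The Srrm genes encode serine/arginine-rich proteins of the splicing machinery without an RNA recognition motif. Srrm4, also known as nSR100, is the neuronal activator of microexons, the very short exons found in transcripts for synaptic proteins. Srrm4 (ENSMUSG00000063919, chr5:116439275-116591817, minus strand) had 1829 and 1798 counts at 0 h, 1732 and 1686 at 2 h, then 5105 and 5093 at 6 h. The 4 libraries of 0 h and 2 h lay close together and both 6 h libraries lay far above them, 2.81-fold higher than 0 h and 2.98-fold higher than 2 h, with a log2 fold change of 1.49 ± 0.10 against 0 h (adjusted p 4.75e-51) and 1.58 against 2 h (adjusted p 5.86e-56). Its change at 2 h was -0.09 (adjusted p 0.613). The call at 6 h held in all 16 other settings and in the test against a fold change of 2, with log2 values from 1.25 to 1.56. Exons of Srrm4 overlap the opposite-strand gene Srrm4os.

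Srrm2 encodes a very large scaffold protein of nuclear speckles and changed earlier. Its counts (ENSMUSG00000039218, chr17:23790532-23824741, plus strand) were 11332 and 11030.4 at 0 h, 19174 and 22387 at 2 h, then 24909 and 23001 at 6 h. It rose at 2 h by 0.89 ± 0.12 on the log2 scale (adjusted p 8.31e-12) and was 2.14-fold higher at 6 h than at 0 h (adjusted p 5.51e-18), with no overlap between 0 h and the later groups. From 2 h to 6 h the difference of 0.21 did not pass (adjusted p 0.165), whereas it was 0.34 without 2 h replicate 2 (adjusted p 1.45e-05) and 0.23 after GC correction (adjusted p 0.0141). Part of its reads are shared with other genes, and its exons overlap Elob. Srrm3, a relative of Srrm4 that also acts on microexons, was higher at 2 h by 0.49 (adjusted p 0.0307) and at 6 h by 0.74. From 2 h to 6 h its 0.25 did not pass, but did after GC correction (0.43, adjusted p 0.00401). Srrm1, a coactivator of splicing in complex with Srrm2, was at -0.15 at 2 h, which did not pass, and higher at 6 h by 0.47 (adjusted p 2.66e-05).

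Muscleblind proteins (Mbnl) bind YGCY elements and drive the switch from fetal to adult exon choices, and their loss of function underlies myotonic dystrophy. Mbnl2, the main muscleblind of the brain, had the largest change of the 58 genes at 2 h and at 6 h in the fit of all libraries. Its counts (ENSMUSG00000022139, chr14:120275669-120431697, plus strand) were 655 and 582 at 0 h, 2227 and 1138 at 2 h, then 2617 and 2353 at 6 h. All libraries with KCl lay above both 0 h libraries, but the 2 h replicates differed nearly 2-fold. The log2 fold change was 1.44 ± 0.28 at 2 h (adjusted p 4.56e-06) and 2.01 ± 0.28 at 6 h (adjusted p 1.59e-11), and the difference of 0.56 between 2 h and 6 h did not pass (adjusted p 0.0911). With the replicate number as a block in the DESeq2 fit, that difference was 0.62 and passed (adjusted p 0.0107). Without 2 h replicate 1 the value at 2 h was 0.87, under 2-fold, and that from 2 h to 6 h was 1.13. Without 2 h replicate 2 the value at 2 h was 1.83.

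Mbnl1 and Mbnl3 had lower counts and larger errors. Mbnl1 had 609 and 461 counts at 0 h, 665 and 336 at 2 h, then 967 and 912 at 6 h, and its 6 h value against 0 h was 0.81 ± 0.31 (adjusted p 0.0202). That call held in 9 of 16 other settings and was lost without 0 h replicate 2, 6 h replicate 1 or 6 h replicate 2 (adjusted p 0.211, 0.143 and 0.0969), with the effective length as an offset (0.36, adjusted p 0.25) and with limma on log2(TPM + 1) (0.20, adjusted p 0.47). Mbnl1 rose from 2 h to 6 h by 0.91 on the log2 scale (adjusted p 0.00876), a call that held in 14 of 16 other settings and was lost without 6 h replicate 1 (adjusted p 0.0942) or 6 h replicate 2 (adjusted p 0.0624). It was 1.49 without 2 h replicate 1 and 0.51 without 2 h replicate 2. At 2 h against 0 h its -0.10 did not pass, but Mbnl1 was lower without 2 h replicate 1, with -0.68 (adjusted p 0.00379). Mbnl3 (ENSMUSG00000036109, chrX:51117269-51206532, minus strand), which is linked to muscle cell differentiation, had 14.2 and 16.0 counts at 0 h, 28.96 and 19.6 at 2 h, then 38.5 and 39.8 at 6 h. At 2.59-fold it was more than 2-fold higher at 6 h (adjusted p 0.0257), but the call was lost when any 1 library was left out. It was also lost in DESeq2 with a replicate block (1.37, adjusted p 0.0705) and under library totals (1.13, adjusted p 0.0871). The effective length as an offset ended it too (1.36, adjusted p 0.0717). In TPM, Mbnl2 took 35.4% of the family sum at 0 h, then 65.8% and 62.0% at 2 h and 6 h, and Mbnl1 from 62.5% to 32.5% and 35.8%.

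**Figure D4:**
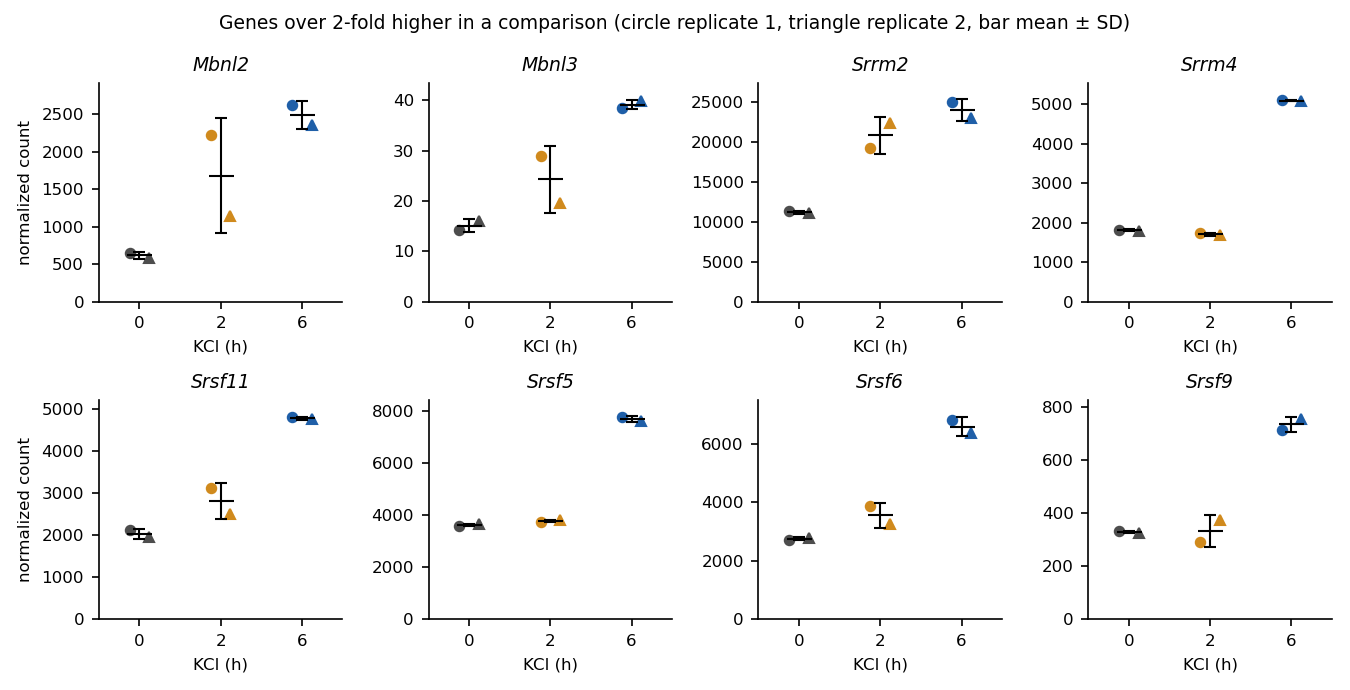
Normalized counts (y axis, from 0) against hours of KCl for the 8 genes more than 2-fold higher in a comparison, with a circle and a triangle for replicates 1 and 2 and a bar for mean ± SD. Srrm4, Srsf5 and Srsf9 are high in the 6 h libraries alone, Srrm2 is already high at 2 h, and the 2 h replicates of Mbnl2 lie at 2227 and 1138.

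In depolarized neurons, calcium entry activates the transcription factor CREB, which binds the cAMP response element TGACGTCA or its core TGACG. The bases before the start of transcription are shown for Mbnl2, Srrm4, Srsf5, Srsf6 and Srsf9, to show where a core site lies. These genes were more than 2-fold higher in a comparison, with at least 100 counts and a single RefSeq start. Srrm2 and Srsf11 have 2 listed starts and are not shown. The sequences shown were chosen after the values were seen. Each runs 5′ to 3′ on the strand of the gene and holds the 250 bases before a RefSeq start on GRCm38.p6, with the core site on either strand in capitals. They lie at chr14:120275419-120275668 for Mbnl2, chr5:116591818-116592067 (minus strand) for Srrm4, chr12:80945249-80945498 for Srsf5, chr2:162931258-162931507 for Srsf6 and chr5:115326927-115327176 for Srsf9.
Mbnl2: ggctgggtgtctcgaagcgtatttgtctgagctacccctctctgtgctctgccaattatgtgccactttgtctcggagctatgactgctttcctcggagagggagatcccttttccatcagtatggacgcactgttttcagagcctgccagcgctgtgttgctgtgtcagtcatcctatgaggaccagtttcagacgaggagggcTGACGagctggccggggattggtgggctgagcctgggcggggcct
Srrm4: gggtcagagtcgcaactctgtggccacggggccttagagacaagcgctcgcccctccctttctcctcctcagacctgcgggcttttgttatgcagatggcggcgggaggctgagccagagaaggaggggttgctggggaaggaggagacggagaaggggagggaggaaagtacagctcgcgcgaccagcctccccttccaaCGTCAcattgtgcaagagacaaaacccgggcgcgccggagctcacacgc
Srsf5: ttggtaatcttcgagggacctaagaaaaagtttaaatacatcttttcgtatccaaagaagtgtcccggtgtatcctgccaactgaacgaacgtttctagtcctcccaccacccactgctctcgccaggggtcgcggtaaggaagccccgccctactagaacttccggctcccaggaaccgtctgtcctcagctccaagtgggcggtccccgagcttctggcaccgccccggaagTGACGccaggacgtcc
Srsf6: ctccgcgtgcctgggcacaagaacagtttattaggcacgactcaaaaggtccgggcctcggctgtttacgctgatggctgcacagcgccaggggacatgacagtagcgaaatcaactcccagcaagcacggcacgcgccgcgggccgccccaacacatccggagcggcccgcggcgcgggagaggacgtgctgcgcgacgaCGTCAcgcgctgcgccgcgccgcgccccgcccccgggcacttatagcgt
Srsf9: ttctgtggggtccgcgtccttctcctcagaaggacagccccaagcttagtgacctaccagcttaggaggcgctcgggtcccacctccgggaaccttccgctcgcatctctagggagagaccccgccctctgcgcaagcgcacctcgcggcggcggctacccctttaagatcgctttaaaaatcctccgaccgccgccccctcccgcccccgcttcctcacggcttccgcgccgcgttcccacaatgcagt

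The core site lies 45 to 41 bases before the start in Mbnl2, 16 to 12 in Srsf5, and, on the opposite strand as CGTCA, 49 to 45 in Srrm4 and in Srsf6, and these letters are not in the window of Srsf9. A RefSeq start was found for 52 of the 58 genes, 37 of them with 1 start, giving 90 windows. TGACG, on either strand and including its occurrence within the full element, was in 34 of these 90 windows (37.8%) and in at least 1 window of 25 of the 52 genes, beside 17.8% of all 32851 windows. Among windows with at least 55% GC it was in 28 of 65 (43.1%), beside 25.8% of 13478. The full element TGACGTCA was in 5 windows of 3 genes, Celf3, Celf6 and Tra2a (5.56%, beside 1.55% of all windows). Windows of the same gene can overlap, as those of Celf3 with the element do. A site can therefore be counted more than once, also among all windows. The share of all genes with a site was not taken, so the 25 of 52 genes have no such value beside them. The AP-1 site TGANTCA was in 4.44%, beside 6.75%. The CArG box bound by SRF was in 3.33%, beside 1.47%, but among windows with at least 55% GC in 0 of 65, beside 1.08% of all such windows. A match describes the sequence alone, and binding was not measured here.

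The Hnrnp genes, which encode the packaging and silencing proteins of pre-mRNA, were highest as a group at 2 h. Their summed TPM was 5012 and 5174 at 0 h, 5922 and 5619 at 2 h, then 5243 and 5175 at 6 h, with both 2 h libraries above the rest. Hnrnpa1 (ENSMUSG00000046434, chr15:103240432-103246692, plus strand) had 20590.4 and 20848 counts at 0 h, 25397 and 25942 at 2 h, then 19102 and 18327 at 6 h. It was higher at 2 h by 0.31 ± 0.09 (adjusted p 0.00255), fell from 2 h to 6 h by 0.46 on the log2 scale (adjusted p 1.22e-06), and stood at -0.15 against 0 h at 6 h (adjusted p 0.165). That 6 h value passed as lower in 5 of 16 other settings, with -0.39 under library totals (adjusted p 0.000355) and -0.32 with limma on log2(TPM + 1) (adjusted p 0.0112) among them. This value stayed at -0.15 without either 2 h replicate. The same turn was seen for Hnrnpc, with 0.46 at 2 h and -0.28 from 2 h to 6 h, and for Hnrnpl, with 0.38 and -0.31, and each of these values passed. Hnrnpc binds uridine tracts and Hnrnpl CA repeats. For Hnrnpa1 the call at 2 h was lost without either 0 h replicate or either 6 h replicate, with adjusted p from 0.0909 to 0.269, and under library totals (0.14, adjusted p 0.333) and limma on log2(TPM + 1) (0.13, adjusted p 0.229). Its call from 2 h to 6 h held in all 16 other settings.

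Other Hnrnp genes were higher than at 0 h at both times. Hnrnpa2b1, which also sorts mRNA into dendrites and axons, had 17590 and 18292 counts at 0 h, 28251 and 25334 at 2 h, then 26232 and 25937 at 6 h. It was 1.49-fold higher at 2 h and 1.45-fold higher at 6 h, with both 2 h and 6 h libraries above 0 h. From 2 h to 6 h its value was -0.04 (adjusted p 0.798), and after GC correction it fell, with -0.48 (adjusted p 0.00195). Hnrnpab, Hnrnph1, Hnrnph2 and Hnrnpll were also higher at both times, by 0.38 to 0.44 at 2 h and 0.35 to 0.52 at 6 h. From 2 h to 6 h none of these 4 passed, and after GC correction Hnrnph1 (-0.29 on the log2 scale, adjusted p 0.00988) and Hnrnpll (-0.29, adjusted p 0.00371) did. Hnrnph1 and Hnrnph2 encode the G-tract binders hnRNP H and H', and their relative Hnrnpf was higher at 6 h (0.61, adjusted p 5.47e-09) with 0.20 at 2 h, which did not pass but was 0.25 after GC correction and then did (adjusted p 0.0025). Hnrnpk, a poly(C) binder, was higher at 2 h alone among the tests against 0 h, with 0.41 there and a 6 h value of 0.22 (adjusted p 0.104). Its difference of -0.19 between the times did not pass, but did after GC correction (-0.45, adjusted p 2.8e-06).

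Hnrnph3, Hnrnpdl, Hnrnpul2 and Hnrnpd were lower at 6 h than at 0 h. Hnrnph3 (ENSMUSG00000020069, chr10:63014664-63024217, minus strand), a short member of the hnRNP H group, had 1129 and 1156 counts at 0 h, 1391 and 1317 at 2 h, then 731 and 643 at 6 h. Both 6 h libraries lay below all others, at 1.66-fold below 0 h (adjusted p 2.38e-07) and 1.97-fold below 2 h (adjusted p 2.96e-12). The 2 h value of 0.25 did not pass (adjusted p 0.164), but did after GC correction (0.35, adjusted p 0.0114). Hnrnpdl (ENSMUSG00000029328, chr5:100033577-100039664, minus strand), a relative of hnRNP D, had 4415 and 4271 counts at 0 h, 6081 and 4976 at 2 h, then 3348 and 3102 at 6 h. It was higher at 2 h by 0.35 (adjusted p 0.0451) and lower at 6 h, with -0.43 against 0 h (adjusted p 0.00573), so its libraries formed 3 separate groups. The 2 h call of Hnrnpdl held in 6 of 16 other settings, being lost without any 1 library but 2 h replicate 2, at adjusted p from 0.097 to 0.377, and under library totals (0.18, adjusted p 0.339). Its call at 6 h against 0 h held in 11 of 16, being lost without either 0 h or either 6 h replicate, at adjusted p from 0.06 to 0.161. Hnrnpul2, a relative of the scaffold protein hnRNP U, had 8030.2 and 7814 counts at 0 h, 7488 and 7322 at 2 h, then 5148 and 5094 at 6 h, and its fall of 0.63 on the log2 scale at 6 h (adjusted p 2.66e-11) followed a difference of -0.10 at 2 h that did not pass but was -0.26 under library totals (adjusted p 0.0246) and -0.28 with limma on log2(TPM + 1) (adjusted p 0.0304). Hnrnpd, also known as AUF1, which binds AU-rich elements of unstable mRNA, was lower at 6 h with -0.38 (adjusted p 0.00553). Hnrnpa0 fell from 2 h to 6 h by 0.43 on the log2 scale (adjusted p 0.022), a call lost after GC correction (-0.33, adjusted p 0.0945). Hnrnpa3, Hnrnpm, Hnrnpr, Hnrnpu and Hnrnpul1 had no value that passed, from -0.41 to 0.45. After GC correction Hnrnpu, which encodes a nuclear scaffold protein, passed at 2 h (0.61, adjusted p 8.26e-14), at 6 h (0.19, adjusted p 0.0358) and from 2 h to 6 h (-0.43, adjusted p 2.16e-07). So did Hnrnpm at 2 h (0.26, adjusted p 0.0233), and Hnrnpa3 (-0.60, adjusted p 0.00078) and Hnrnpr (-0.29, adjusted p 0.000412) from 2 h to 6 h.

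Celf proteins bind UG-rich elements and in muscle oppose muscleblind proteins at many exons. Celf2 (ENSMUSG00000002107, chr2:6539694-7509563, minus strand), the most abundant of the family at 0 h, had 17446 and 15494 counts at 0 h, 13854 and 11272 at 2 h, then 8968 and 9152 at 6 h. Each group lay below the one before it, with log2 fold changes of -0.39 at 2 h (adjusted p 0.0254), -0.86 at 6 h against 0 h (adjusted p 9.79e-09) and -0.47 from 2 h to 6 h (adjusted p 0.00286). The call at 2 h was lost without either 0 h or either 6 h replicate, at adjusted p from 0.107 to 0.436, and that from 2 h to 6 h without 6 h replicate 1 (adjusted p 0.0855) or 6 h replicate 2 (adjusted p 0.0672), while that at 6 h against 0 h held in all 16 other settings. Celf1 went the other way, with 7566 and 6961 counts at 0 h, 9154 and 8014 at 2 h, then 12023 and 11640 at 6 h, and was higher at 6 h by 0.70 ± 0.12 (adjusted p 2.16e-08). Its 2 h value of 0.24 did not pass, but did after GC correction (0.29, adjusted p 0.00316). By TPM, Celf2 took 49.8% of the family at 0 h and 34.9% at 6 h, and Celf1 13.5% and 26.1%. Celf5 and Celf6, relatives of the neuronal Celf4, were lower at 6 h, with -0.44 and -0.35 on the log2 scale, and from 2 h to 6 h they fell by 0.57 and 0.42. After GC correction Celf6 passed in neither, with -0.21 (adjusted p 0.165) and -0.28 (adjusted p 0.055). Celf4 was higher at 2 h (0.39, adjusted p 0.00313) and fell from 2 h to 6 h by 0.27 on the log2 scale (adjusted p 0.0373), which after GC correction was -0.18 and did not pass (adjusted p 0.185). Celf3 had no value that passed.

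Rbfox proteins bind UGCAUG beside exons of neurons and muscle, and Rbfox3 is the antigen known as NeuN, a marker of mature neurons. Rbfox2, the most abundant of the family, had 16479 and 16212 counts at 0 h, 17946 and 18326 at 2 h, then 18548 and 18220.0 at 6 h. Its log2 fold changes of 0.15 and 0.17 against 0 h did not pass (adjusted p 0.203 and 0.0928). After GC correction both were 0.18 and passed (adjusted p 0.0152 and 0.011). Without 2 h replicate 1 the 2 h value was 0.155, and without either 2 h replicate the 6 h value was 0.17. Rbfox3 had 1169 and 1262 counts at 0 h, 1452 and 1883 at 2 h, then 889 and 1048 at 6 h. It was higher at 2 h (0.46, adjusted p 0.0398), a call that held in 6 of 16 other settings and was lost without either 0 h replicate, 2 h replicate 2 or either 6 h replicate (adjusted p 0.0953 to 0.365), under library totals (0.29, adjusted p 0.273) and with limma on log2(TPM + 1) (0.07, adjusted p 0.825). It fell from 2 h to 6 h by 0.78 on the log2 scale (adjusted p 5.21e-05). At 6 h its libraries lay below those of 0 h with a log2 fold change of -0.33 that did not pass (adjusted p 0.125). That 6 h value was -0.33 without either 2 h replicate and -0.57 under library totals (adjusted p 0.0065). Rbfox1 was lower at 6 h, with a value of -0.46 against 0 h (adjusted p 0.0184) and stood at 0.13 at 2 h. By TPM, Rbfox2 was at 183 at 0 h, 179 at 2 h and 180.5 at 6 h, and held 64.7% of the family sum at 0 h and 74.1% at 6 h.

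Nova proteins bind YCAY clusters and control exons of synaptic transcripts. Nova2, the main form of the cortex, had 4892 and 4323 counts at 0 h, 3395 and 3569 at 2 h, then 4883 and 5115 at 6 h. Both 2 h libraries lay below all others, with a log2 fold change of -0.40 at 2 h (adjusted p 0.00312) and 0.52 from 2 h to 6 h (adjusted p 3.57e-05), while 6 h differed from 0 h by 0.12, which did not pass but was 0.25 after GC correction and then did (adjusted p 0.0474). The 2 h call was lost without 0 h replicate 1 (-0.31, adjusted p 0.329) or 0 h replicate 2 (-0.48, adjusted p 0.0554). Nova1 had no value that passed, from 0.07 to 0.31.

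Elavl proteins (Hu antigens) bind AU-rich elements and stabilise mRNA, and Elavl2, Elavl3 and Elavl4 are the neuronal forms. Elavl3 had 12081 and 12119 counts at 0 h, 13690 and 15411 at 2 h, then 15041 and 15357 at 6 h, with log2 fold changes of 0.27 at 2 h (adjusted p 0.0462) and 0.33 at 6 h (adjusted p 0.00563). All KCl libraries lay above 0 h, yet under scaling to library totals the 6 h value was 0.08 (adjusted p 0.615) and with limma on log2(TPM + 1) 0.15 (adjusted p 0.208), neither of which passed, and leaving out either 0 h or either 6 h replicate gave adjusted p of 0.131 to 0.174. The 2 h value passed in 6 of 16 other settings, and not without either 0 h replicate, 2 h replicate 2 or either 6 h replicate, at adjusted p from 0.0509 to 0.422. It was 0.10 under library totals and 0.08 with limma on log2(TPM + 1), and neither passed. From 2 h to 6 h Elavl3 was at 0.06, which did not pass, but did after GC correction (0.18, adjusted p 0.0172) and without 2 h replicate 2 (0.17, adjusted p 0.0304). Elavl1, the form found in all tissues, was higher at 6 h by 0.59 ± 0.12 (adjusted p 8.66e-06) with a value of -0.001 at 2 h. Elavl2 and Elavl4 had no value that passed. After GC correction Elavl4 did, with -0.22 at 6 h (adjusted p 0.0122) and -0.40 from 2 h to 6 h (adjusted p 2.77e-06), against -0.03 and -0.04 without it.

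The Khdrbs genes encode the STAR proteins Sam68, SLM1 and SLM2, which regulate an alternatively spliced exon of neurexins. Khdrbs3, the most abundant, had 4191 and 4204 counts at 0 h, 4911 and 5348 at 2 h, then 4655 and 4911 at 6 h. It was higher at 2 h by 0.29 (adjusted p 0.0248). Its 6 h value of 0.19 did not pass in the full fit and was 0.185 without either 2 h replicate. The 2 h call held in 10 of 16 other settings and was lost without either 0 h or either 6 h replicate, at adjusted p from 0.169 to 0.369. Library totals (0.12, adjusted p 0.524) and limma on log2(TPM + 1) (0.11, adjusted p 0.37) also ended it. Khdrbs1 and Khdrbs2 had log2 fold changes between -0.11 and 0.13, and none passed. After GC correction Khdrbs1 was at 0.21 at 2 h (adjusted p 0.0244) and Khdrbs2 at -0.39 from 2 h to 6 h (adjusted p 0.0477).

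Effective length is the number of positions at which a sequenced fragment can start, averaged over the transcripts of a gene by their estimated abundance. It is shorter than the transcripts themselves and moves with their mix and with the fragment lengths of the library. Of 57 genes with enough counts, 3 had a shorter effective length at 6 h than at 0 h, Srsf1, Hnrnph3 and Hnrnpdl, and 0 a longer one, by limma with an adjusted p no greater than 0.05 and a log2 ratio of at least 0.2 in size. Of all 11233 genes tested, 0.445% were shorter and 0.0801% longer. At an unadjusted p under 0.05 the counts were 4 shorter and 1 longer. None of the 57 was called at 2 h against 0 h, where 0.0178% of genes were shorter and 0.0178% longer, or at 6 h against 2 h, where 0.089% were shorter and 0.0267% longer. At an unadjusted p under 0.05, limma gave 1 shorter and 0 longer at 2 h and 2 shorter and 0 longer between 2 h and 6 h, and limma without a trend also called 0.

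Srsf1 (ENSMUSG00000018379, chr11:88047373-88053755, plus strand) had effective lengths of 2826 and 2673 bases at 0 h, 2489 and 2541 at 2 h, then 2096 and 2088 at 6 h. The groups did not overlap, and the log2 ratio of 6 h to 0 h was -0.39 ± 0.03 (adjusted p 0.0469), while its count did not pass at 6 h, and with the effective length as an offset it was 0.63 higher (adjusted p 0.0117). Hnrnph3 had 1736 and 1772 bases at 0 h, 1655 and 1689.5 at 2 h, then 1444 and 1393 at 6 h, with a log2 ratio of -0.31 (adjusted p 0.0469). For Hnrnpdl the lengths were 2215 and 2197 bases at 0 h, 2036 and 2015 at 2 h, then 1815 and 1858 at 6 h, with a log2 ratio of -0.27 (adjusted p 0.0382), and with the length as an offset its count at 6 h was at -0.20 and no longer passed (adjusted p 0.258). In each of the 3 genes every 6 h library was shorter than every other library. Leaving out any 1 of the 6 libraries ended all 3 calls, with adjusted p from 0.0744 to 0.219, and the ratios then stayed between -0.25 and -0.43.

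The annotation GENCODE M21 does not hold the transcript lengths behind the tables for every gene. Hnrnpul2 had effective lengths of 5404 to 5424 bases, above the 5118 bases of its single listed transcript in M21. The M21 lengths and types that follow therefore need not be those measured. In M21, Srsf1 has 7 of the listed transcripts, of 401 to 5362 bases, among them 2 marked for nonsense-mediated decay and 2 with a retained intron. Hnrnph3 has 6, of 651 to 2213 bases, with 1 and 2 of these kinds, and Hnrnpdl has 7, of 846 to 2752 bases, with 2 and 2. Which transcripts changed was not analysed here, since the tables give 1 length per gene. Srsf5 had its shortest values at 2 h, with 1257 and 1209 bases at 0 h, 1081 and 1026 at 2 h, then 1188 and 1189 at 6 h, and the 2 h ratio of -0.23 did not pass (adjusted p 0.224). Hnrnph1 was at -0.11 at 6 h (adjusted p 0.0542). The 9 genes with a single listed transcript cannot change their mix, so their log2 ratios show only the shift in fragment lengths. These ratios were at most 0.012 in size. They say nothing on how well reads were divided among the transcripts of other genes.

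**Figure D5:**
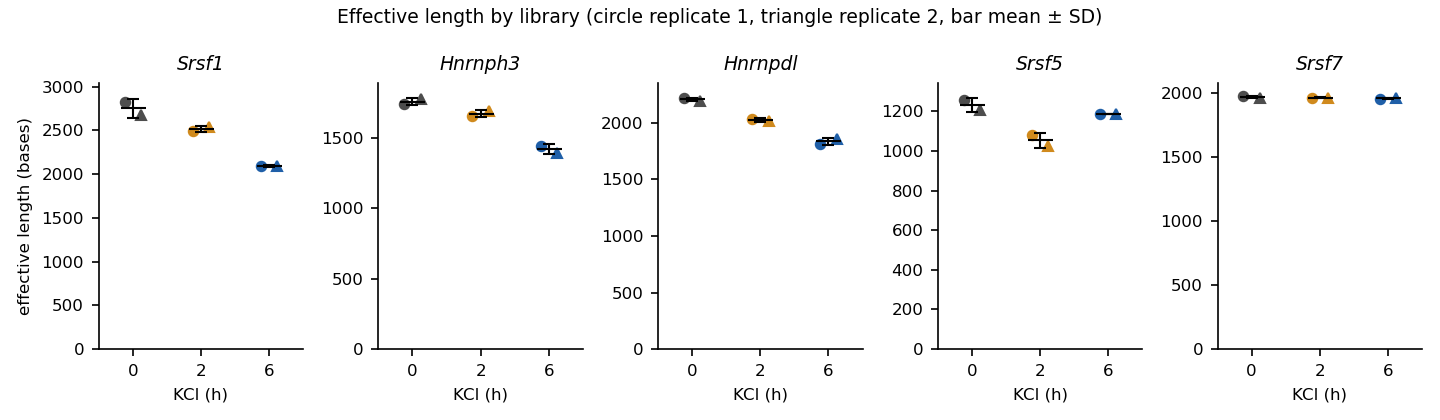
Effective length in bases (y axis, from 0) against hours of KCl, with a circle and a triangle for replicates 1 and 2 and a bar for mean ± SD. Srsf1, Hnrnph3 and Hnrnpdl are shortest in the 6 h libraries, Srsf5 is shortest at 2 h, and Srsf7, with a single listed transcript, lies between 1957 and 1977 bases throughout.

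Other genes of the splicing pathway were described for context. Kinases that phosphorylate SR proteins had 6 of 9 genes higher and 0 lower at 6 h against 0 h, with Clk4 (1.07, adjusted p 2.98e-11) and Prpf4b (1.02, adjusted p 2.36e-08) more than 2-fold higher, and their summed TPM was 355 and 349 at 0 h, 399 and 346 at 2 h, then 505 and 489 at 6 h. Of all genes tested, 23.7% were higher and 21.7% lower in that comparison. Of 39 core spliceosome genes, 13 were higher and 6 lower at 6 h. The U1 component Snrnp70 (1.23) and its associate Luc7l2 (1.06) were more than 2-fold higher, and Prpf31 (-1.69), of the U4/U6 and U5 complex, was more than 2-fold lower. Of 44 other regulators and RNA-binding proteins, 42 of them tested, 18 were higher and 5 lower, with Msi2 (1.304), Pnn (1.21) and Cpeb2 (1.20) more than 2-fold higher and Rbm10 (-1.27) and Tia1 (-1.15) more than 2-fold lower. At 2 h the counts were 2 higher and 1 lower of 8 kinases tested, 7 and 3 for the spliceosome, and 11 and 2 for the other regulators, where 12.3% and 14.2% of all genes were higher and lower. After GC correction the 2 h counts were 6 and 1, 12 and 3, and 21 and 3, beside 3189 and 2473 of 14668 genes averaging at least 10 counts. From 2 h to 6 h the counts without this correction were 4 and 0, 7 and 5, and 11 and 6, beside 24.1% and 21.2% of all genes. With it they were 4 and 1, 8 and 9, and 12 and 10, beside 4005 and 3981 of the 14668 genes. Under library totals the 6 h counts were 5 and 0, 9 and 10, and 12 and 12, and the medians of the last 2 lists stood at -0.14 and 0.02. Shares of all genes under that scaling are not given here.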

How the data were processed

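The authors trimmed the reads with Trim Galore and quantified them on mm10 with RSEM 1.3.0 and Bowtie2 2.2.9, per the submitters' processing notes; the annotation release and the strand setting are not given in the sources used here. The deposited tables hold, for each gene and library, an expected count, TPM, FPKM (not used) and the length and effective length in bases, and the authors' count shares reads that fit several genes. The 58 genes, the lists and the tests were chosen with earlier results of these data known. Expected counts were rounded and tested with DESeq2 1.42.0 (R 4.3.3, Wald test, median-of-ratios scaling, 1 fit of 6 libraries, Benjamini-Hochberg over all genes). Genes with an adjusted p of at most 0.05 were called higher or lower, and those with a log2 fold change over 1 in size also as more than 2-fold. "Normalized counts" are counts over size factors. Effective length was tested with limma 3.58.1 (trend, log2 scale, mean expected count of at least 100). Alternatives used edgeR 4.0.16, limma on log2(TPM + 1), other scalings, a GC correction (loess span 0.5), a replicate block and leaving out each library. The scripts were tested on simulated data. Values per library are given for genes called in any comparison, the 3 highest and 3 lowest in each that passed with at least 100 counts and no overlap, and the most abundant of each family. Celf1, Hnrnpa2b1, the promoters and fold changes of other genes were added after their values were seen. Gene coordinates come from GRCm38 (GENCODE M21). Reads that fit more than 1 gene gave non-whole counts in 15 of the 58 genes, and 12 overlap exons of another expressed gene.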

Additional observations from a re-analysis of the deposited data

How the results depend on the processing

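With library totals as size factors, 5 of the 58 genes were higher and 5 lower at 2 h against 0 h, and 15 were higher and 17 lower at 6 h against 0 h, of which 3 were more than 2-fold higher and 1 more than 2-fold lower, while 1 was more than 2-fold lower at 6 h against 2 h. With limma on log2(TPM + 1), 5 were higher and 5 lower at 2 h, and 13 were lower and 2 more than 2-fold higher at 6 h against 0 h. In the DESeq2 test against a fold change of 2, 0 genes were higher at 2 h, 2 at 6 h against 0 h and 1 at 6 h against 2 h. edgeR, TMM factors and the GC correction each gave 1 gene more than 2-fold lower at 6 h against 2 h. Shares of all genes are not given for these settings. The cause was not tested.

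Without 1 library, genes higher numbered 4 to 30 at 2 h against 0 h, 16 to 30 at 6 h against 0 h and 9 to 24 at 6 h against 2 h, and genes lower 0 to 9, 3 to 14 and 6 to 20. Those more than 2-fold higher numbered 0 to 1, 7 to 8 and 3 to 6, and those more than 2-fold lower at 6 h against 2 h 0 to 1. The count of shorter effective lengths at 6 h against 0 h was 0 in each such fit. It was 1 with a mean count of at least 20, 1 without a trend and 1 with the length column in place of effective length, an alternative chosen after seeing the data. Srsf1 at 2 h was 0.11 in the full fit, -0.28 without 2 h replicate 1 and 0.40 without 2 h replicate 2. Of the alternatives for 81 values of single genes, 1109 kept their side of the threshold, 172 no longer passed, 65 newly passed and 1 passed with its sign reversed. These counts include the DESeq2 test against a fold change of 2, which asks a stricter question. Values that did not pass could also change sign, as Srsf5 at 2 h did, with 0.06 in the full fit and -0.11 under library totals.

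The replicate numbers are shared by the groups, but deviations of same-numbered libraries correlated at 0.28, -0.002 and 0.15 in the 3 comparisons, and there are only 2 numbers, so they were not taken as pairs. With a replicate block, 20 genes were higher and 3 lower at 2 h, 23 and 7 at 6 h against 0 h, and 15 and 15 at 6 h against 2 h, and 0 effective lengths were shorter. The block with the GC correction gave 13 lower at 6 h against 0 h and 1 more than 2-fold lower at 6 h against 2 h. With 2 libraries per group, small changes and the 2 h values are the least certain.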
